A study of Homo sapiens with 6 samples.

Results

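The 10 genes described here, ALDH1A3, ALDH1B1, ALDH2, ALDH3A2, ALDH3B1, ALDH7A1, ALDH9A1, ALDH16A1, ALDH18A1 and ALDH1L2, belong to the aldehyde dehydrogenase superfamily and were taken by symbol from a table of 15024 genes, a choice made with earlier results of these data known. All 10 were found, and all 10 passed the filter on low values, which kept the 14343 genes whose normalised read count reached 10 in 3 or more of the 6 libraries. RNA came from MDA-MB-231, an established triple-negative breast cancer line, here the cells labelled sgNT (the wild-type arm of the design text), grown with 10 µM forskolin for 14 days, a drug that raises cyclic AMP and so activates protein kinase A. Cells were sorted as CD44-positive and either high (CD104high) or negative to low (CD104low) for CD104, the integrin beta 4 protein encoded by ITGB4, with 3 libraries labelled as biological replicates in each group. The design text calls the former a hybrid epithelial-mesenchymal state and the latter mesenchymal. Both groups share the line, the sgNT label and the forskolin, so no cells without forskolin enter the comparison, and the MLL3-mutant cells of the study were not analysed here. The labels do not say whether replicates came from separate cultures or sorts, so the spread behind each p-value may be technical.

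Aldehyde dehydrogenases oxidise aldehydes to carboxylic acids, mostly with NAD or NADP as the electron acceptor. They clear reactive aldehydes that come from ethanol, membrane lipids and amino acids, and some members make a signal or a building block instead: retinoic acid, proline precursors or a folate cofactor. In breast tumours, high activity in a fluorescent aldehyde dehydrogenase assay is widely used beside CD44 to isolate cells with stem-like behaviour, and ALDH1A1 and ALDH1A3 are the members most often tied to that activity.

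Of the 10 genes, ALDH3B1 and ALDH7A1 rose and ALDH1B1 and ALDH18A1 fell in CD104high cells at an adjusted p under 0.05, and the other 6 did not pass the test. Of these 4, ALDH3B1, an enzyme of fatty aldehydes, differed most, at 1.76-fold higher, while the larger fitted difference of ALDH1L2 (1.80-fold) did not pass. ALDH7A1 was 1.17-fold higher, ALDH1B1 1.28-fold lower and ALDH18A1 1.18-fold lower. The calls were made with limma on log2(value + 1), adjusted over all 14343 tested genes, of which 23.4% were called, 12.1% higher and 11.3% lower. The members' 4 of 10 is few genes to set against those shares. The median log2 fold change was 0.23 for the 10 genes and 0.01 for all tested genes. With the replicate number as a block (replicate 1 of one group set against replicate 1 of the other, and so on), 6 were called higher and 2 lower, where 32.8% of all genes were called, 17.4% higher and 15.4% lower. Without both libraries numbered 3, 1 was higher and 1 lower, against 23.1% of all genes (12.6% and 10.5%). Without the mean-variance trend, again 1 was higher and 1 lower, against 15.2% (8.62% and 6.53%). With DESeq2 on recovered reads 4 were higher and 2 lower, against 28.3% (14.6% and 13.8%), and with edgeR on total reads likewise 4 and 2, against 22.8% (12.6% and 10.2%). The groups did not overlap for 8 of the 10 genes, 6 higher and 2 lower, against 41.2% of all genes (19.9% and 21.3%), and 9 of the 10 went one way in all 3 numbered pairs, against 61.3%.

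The 250 bases before a RefSeq start site (build GRCh38.p14) are shown for ALDH3B1, the called member with the largest difference, and for ALDH18A1, the called member whose window held motif matches. ALDH3B1 has a second listed start site, with a window at chr11:68010077-68010326 that held no match. Only the window of its first listed start is shown. Sequence windows were matched for 7 of the 10 genes. Capitals mark matches, on either strand, to the E-box CACGTG bound by MYC and related factors, the cyclic AMP response element TGACGTCA bound by CREB, its core TGACG, the amino acid response element TGATGNAA bound by ATF4, and the antioxidant element TGACNNNGC bound by NRF2. The core lies within the full element, so a match to the latter is also a match to the former.
ALDH3B1: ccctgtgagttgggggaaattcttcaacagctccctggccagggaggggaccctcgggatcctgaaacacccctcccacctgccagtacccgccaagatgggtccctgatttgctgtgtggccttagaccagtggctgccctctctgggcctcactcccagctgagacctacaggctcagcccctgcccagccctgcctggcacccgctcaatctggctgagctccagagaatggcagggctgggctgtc
ALDH18A1: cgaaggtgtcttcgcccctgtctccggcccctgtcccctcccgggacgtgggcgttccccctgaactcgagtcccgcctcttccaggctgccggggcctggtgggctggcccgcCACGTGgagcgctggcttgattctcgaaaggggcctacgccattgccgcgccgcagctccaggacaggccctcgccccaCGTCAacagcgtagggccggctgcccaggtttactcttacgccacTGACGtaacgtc

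These windows lie at chr11:68008297-68008546, plus strand (ALDH3B1), and chr10:95656712-95656961, minus strand (ALDH18A1), both upstream of the annotated gene. Among the windows of the 4 called genes, only that of ALDH18A1 held a match: an E-box from -136 to -131 and TGACG cores from -57 to -53 and from -12 to -8, counted from the start site. Among the windows of the other genes, the second listed start of ALDH3A2 held an E-box and that of ALDH9A1 a TGACG core. Over 35116 windows of the same length, 6.34% held the E-box, 1.65% the full cyclic AMP element, 21.2% its core, 3.14% the amino acid element and 10.9% the antioxidant element. The letters are a description of these windows and not evidence that a factor binds there.

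**Figure D1:**
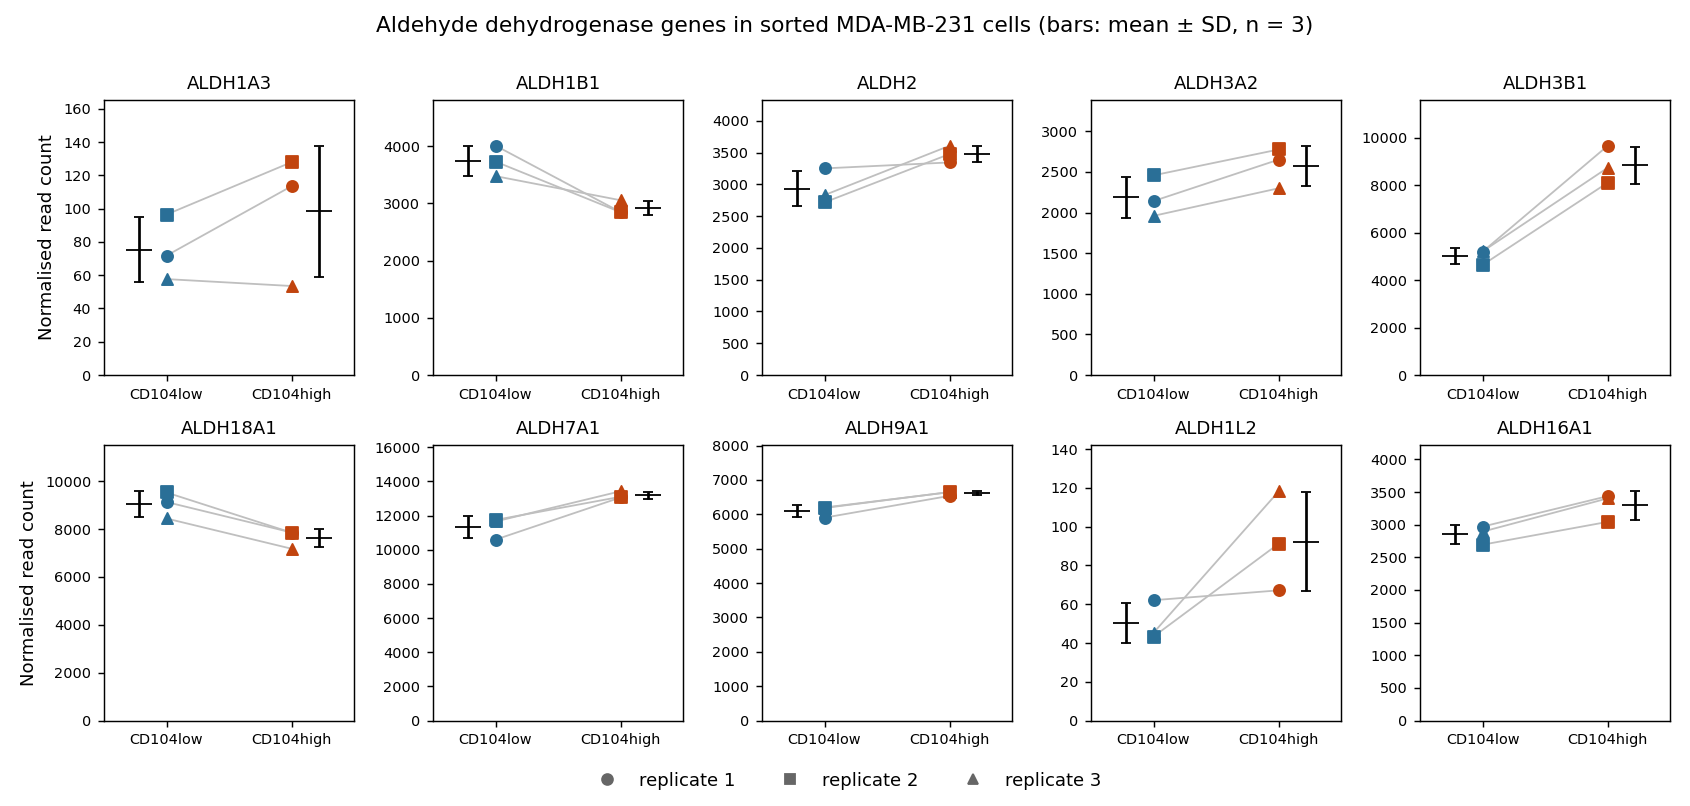
Normalised read counts (vertical axis, from 0) of the 10 genes in each library, CD104low in blue and CD104high in orange. Symbols give the replicate number, grey lines join libraries of the same number, and black bars are the mean ± SD of 3 libraries. All 3 CD104high libraries lie above all CD104low libraries for ALDH3B1 and below them for ALDH1B1 and ALDH18A1.

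The enzyme of retinoic acid synthesis among these genes, ALDH1A3, which oxidises retinaldehyde, was expressed at a low level. Its normalised read counts, that is reads divided by the library's size factor, were 114, 128 and 53.5 in CD104high replicates 1 to 3 and 71.8, 96.5 and 57.7 in CD104low replicates 1 to 3. The groups overlapped, and the libraries numbered 3 were the lowest of each group. The mean was 98.4 ± 39.5 (SD, n = 3) in CD104high and 75.3 ± 19.6 in CD104low. The log2 fold change fitted by limma was 0.32 (SE 0.34, 95% interval -0.44 to 1.08), with an adjusted p of 0.54. Counting error alone gave a coefficient of variation of 10.1% in CD104high, where the libraries varied by 40.2%. Leaving out 1 library moved the log2 fold change from 0.08 (without CD104high replicate 2) to 0.70 (without CD104high replicate 3), and without both libraries numbered 3 it was 0.53, with an adjusted p of 0.103 or more in each of these fits. The other retinaldehyde dehydrogenase in the table, ALDH1A2, had a mean of 22.9 ± 13.4 against 22.3 ± 13.5, and ALDH1A1 was not analysed here.

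Of the pair of mitochondrial enzymes that oxidise acetaldehyde, ALDH1B1 fell and ALDH2 did not pass the test. ALDH1B1 had normalised read counts of 2845, 2845 and 3054 in CD104high and of 4010, 3731 and 3477 in CD104low. Every CD104high library was below every CD104low library. Its mean was 2915 ± 121 (SD, n = 3) against 3739 ± 267, so that it fell by 0.36 on the log2 scale (SE 0.08), with an adjusted p of 0.00895 in limma. It kept its call under each of the 16 alternative settings, with log2 fold changes from -0.44 to -0.31.

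ALDH2, the main acetaldehyde enzyme of ethanol breakdown, had 3346, 3480 and 3610 in CD104high and 3252, 2718 and 2832 in CD104low. The lowest CD104high library lay just above the highest CD104low library, CD104low replicate 1. The log2 fold change was 0.25 (SE 0.08, 95% interval 0.07 to 0.43), and the adjusted p of 0.0537 with limma missed the threshold. It passed in 5 of 16 alternative settings: with the replicate block (adjusted p = 0.0358), a stricter filter at 100 (0.0481), DESeq2 (0.0329), edgeR on total reads (0.035) and without CD104low replicate 1 (0.0149). Within each library, which takes out scaling between libraries, ALDH1B1 had 0.838 ± 0.018 (SD, n = 3) times the reads of ALDH2 in CD104high and 1.28 ± 0.082 times in CD104low, without overlap. The log2 difference of that ratio was -0.61 (exact two-sided permutation p = 0.1, the smallest that 3 against 3 libraries can give, and 0.1 adjusted over 3 such ratios). The pair was chosen after values were seen. Each gene alone separated the groups, in opposite directions, so the ratio had to separate them and adds no support.

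The enzymes of fatty aldehydes, ALDH3A2 and ALDH3B1, were both higher in every numbered pair of libraries, but by different amounts. ALDH3B1, which acts on medium- and long-chain aldehydes from lipid peroxidation, had normalised read counts of 9664, 8107 and 8737 in CD104high and of 5193, 4638 and 5207 in CD104low. No CD104low library came near the CD104high range. The mean was 8836 ± 783 (SD, n = 3) against 5013 ± 325, a rise of 0.82 on the log2 scale (SE 0.08), with an adjusted p of 0.000325 in limma. It ranked 74 by p-value among the 14343 tested genes. The fold within numbered pairs was 1.86, 1.75 and 1.68, and the call held in all 16 alternative settings, with log2 fold changes from 0.75 to 0.88.

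ALDH3A2, the fatty aldehyde dehydrogenase that is deficient in Sjögren-Larsson syndrome, had 2652, 2776 and 2299 in CD104high and 2141, 2458 and 1959 in CD104low. The groups overlapped, since replicate 3 was lowest and replicate 2 highest in both. Its log2 fold change was 0.24 (SE 0.10, adjusted p = 0.124 with limma). Compared pair by pair, it was 1.24-fold, 1.13-fold and 1.17-fold higher, and with the replicate block it passed (adjusted p = 0.0241). Reads of ALDH3B1 were 3.45 ± 0.47 times those of ALDH3A2 in CD104high libraries and 2.32 ± 0.40 times in CD104low libraries (log2 difference 0.58, exact two-sided permutation p = 0.1, adjusted p = 0.1), without overlap. This pair, too, was chosen after values were seen. ALDH3B1 has a close paralog, ALDH3B2, that was not analysed here. How reads shared by paralogs were treated is not given in the sources used here.

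**Figure D2:**
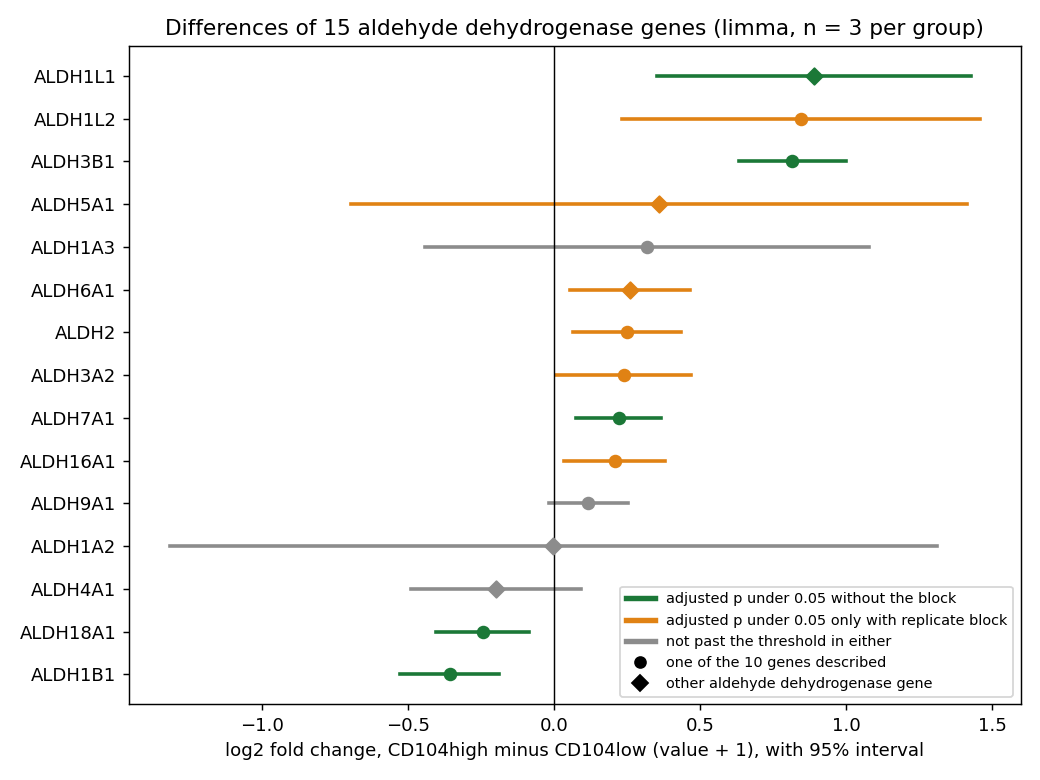
Log2 fold change (CD104high minus CD104low, horizontal axis) of the 15 tested aldehyde dehydrogenase genes with its 95% interval from limma. Circles are the 10 genes described and diamonds the other genes of the superfamily. ALDH3B1 at 0.82 has a narrow interval, while ALDH1L2 at 0.85 and ALDH1L1 at 0.89 have wide ones, and ALDH1B1 and ALDH18A1 lie below 0.

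Among the enzymes of amino acid metabolism, ALDH18A1 fell and ALDH7A1 rose. ALDH18A1 encodes pyrroline carboxylate synthase, which makes the precursor of proline and ornithine from glutamate. It had normalised read counts of 7853, 7844 and 7174 in CD104high and of 9127, 9526 and 8439 in CD104low, without overlap. Its log2 fold change was -0.24 (SE 0.07, adjusted p = 0.0341 with limma). In the numbered pairs the CD104high level was 0.86, 0.824 and 0.85 times the CD104low level. The call held in 9 of 16 alternative settings. It ended on leaving out any library but CD104low replicate 3 (adjusted p = 0.0627 to 0.121), without both libraries numbered 3 (0.0759) and without the mean-variance trend (0.0935).

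ALDH7A1, called antiquitin, works in lysine breakdown, and its loss causes pyridoxine-dependent epilepsy. Its normalised read counts were 13067, 13106 and 13431 in CD104high and 10595, 11748 and 11657 in CD104low. The coefficient of variation was 1.51% over the CD104high libraries and 5.66% over the CD104low libraries, whose replicate 1 was lowest. The log2 fold change was 0.22 (SE 0.07, adjusted p = 0.0347 with limma). As for ALDH18A1, the call held in 9 of 16 settings and ended on leaving out any library but CD104low replicate 3 (adjusted p = 0.0577 to 0.103), without both libraries numbered 3 (0.107) and without the trend (0.0881). The ratio of ALDH18A1 to ALDH7A1 reads was 0.578 ± 0.038 in CD104high and 0.799 ± 0.070 in CD104low, without overlap (log2 difference -0.47, exact two-sided permutation p = 0.1, adjusted p = 0.1). The pair was chosen after values were seen. Both genes separated the groups, in opposite directions, so this ratio had to separate them and adds no support.

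ALDH9A1, which takes part in carnitine synthesis, differed least of the genes without overlap. It had 6538, 6644 and 6648 in CD104high and 5902, 6197 and 6184 in CD104low. The spread within CD104high (0.948%) was below that of counting alone (1.23%). Its log2 fold change of 0.12 (SE 0.06, 95% interval -0.02 to 0.25, adjusted p = 0.187 with limma) did not pass, nor did it in any of the 16 alternative settings.

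ALDH1L2, the mitochondrial formyltetrahydrofolate dehydrogenase, which oxidises a folate-bound formyl group to carbon dioxide with production of NADPH, had few reads. Its normalised read counts were 67.2, 91.3 and 118 in CD104high and 62.1, 43.3 and 45.3 in CD104low. The groups did not overlap, but CD104high replicate 1 and CD104low replicate 1 were only 1.08-fold apart, and their 95% Poisson intervals, which cover counting error only, ran from 52.2 to 85.2 and from 47.8 to 79.3. In pairs 2 and 3 the fold was 2.11 and 2.61. The log2 fold change was 0.85 (SE 0.28, 95% interval 0.23 to 1.46), at an adjusted p of 0.0503 with limma. It passed with the replicate block (adjusted p = 0.0379), with a pseudocount of 5 (0.0477), with DESeq2 (0.0326), with edgeR on total reads (0.0462) and without CD104low replicate 1 (0.0475). Without both libraries numbered 3 the log2 fold change was 0.59 (adjusted p = 0.194). Its cytosolic counterpart ALDH1L1 had 425, 407 and 711 in CD104high and 228, 233 and 362 in CD104low, and rose by 0.89 on the log2 scale (SE 0.24, adjusted p = 0.0252 with limma), with folds of 1.86, 1.74 and 1.97 in the numbered pairs. The call for ALDH1L1 ended without CD104high replicates 1 or 3 (adjusted p = 0.054 and 0.0623), without CD104low replicates 1 or 2 (0.0857 and 0.076), and without the trend (0.0858).

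ALDH16A1, an unusual member whose mammalian form lacks the catalytic cysteine, had 3437, 3043 and 3403 in CD104high and 2970, 2693 and 2893 in CD104low. The groups did not overlap, with the lowest CD104high library close above the highest CD104low library. The log2 fold change was 0.21 (SE 0.08, adjusted p = 0.0806 with limma), and it passed with the replicate block (adjusted p = 0.0323). An exon of ALDH16A1 is overlapped by PIH1D1 on the opposite strand, which fell by 0.20 on the log2 scale (adjusted p = 0.0366). An exon of ALDH1L2 is overlapped by C12orf45, also on the opposite strand, with a log2 fold change of -0.34 (adjusted p = 0.0737), which passed with the replicate block (adjusted p = 0.0318). Since the strand setting of the counting is not given in the sources used here, reads in these stretches cannot be told apart. The same holds for ALDH3B1, ALDH9A1 and ALDH1A3, each of which has an annotated opposite-strand gene touching an exon. Genes annotated on the same strand touch exons of ALDH2, ALDH9A1, ALDH16A1 and ALDH1A3.

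Variation between replicates was unequal among the genes. The coefficient of variation within groups was between 0.948% and 11.5% for the 8 genes other than ALDH1A3 and ALDH1L2, and between 20.5% and 40.2% for that pair. Both libraries numbered 3 lay below the other 4 libraries for ALDH1A3, and likewise for ALDH1A2 and ALDH5A1, which makes succinate from a product of GABA breakdown. Over all tested genes, 6.57% were lowest in both libraries numbered 3 and 7.03% highest. ALDH5A1 had 700, 789 and 264 in CD104high and 540, 650 and 197 in CD104low. It was 1.29-fold, 1.21-fold and 1.34-fold higher in the pairs, but its log2 fold change of 0.36 had an SE of 0.47 and an adjusted p of 0.627 without the block, and an SE of 0.10 and an adjusted p of 0.0237 with it. The annotated span of GPLD1, on the opposite strand, touches an exon of ALDH5A1, and whether exons of both overlap was not examined. GPLD1 was at 17.5 and 38.1 in the libraries numbered 3 and between 64.2 and 91.3 in the others. What the libraries numbered 3 share was not tested.

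Of 9 other genes of the superfamily, 7 were in the table and 5 were tested, and ALDH1L1 alone of these passed in limma, with 3 higher under the replicate block (ALDH1L1, ALDH5A1 and ALDH6A1). Of all tested genes, 12.1% were higher in limma and 17.4% with the block. ALDH6A1, which breaks down valine and pyrimidine products, had a mean of 940.9 ± 13.4 in CD104high and 786 ± 45.1 in CD104low (SD, n = 3), without overlap. Its log2 fold change was 0.26 (adjusted p = 0.0675 with limma and 0.0457 with the block). The annotated span of BBOF1, on the opposite strand, touches an exon of ALDH6A1. BBOF1 had a log2 fold change of 0.50 (adjusted p = 0.0577 with limma and 0.0391 with the block), and its part in the ALDH6A1 reads was not tested. Opposite-strand genes, ALDH1L1-AS1 and ALDH1L1-AS2, also touch exons of ALDH1L1. ALDH4A1, which carries out the last step of proline breakdown, had 850 ± 143 against 970 ± 79.3. Its log2 fold change fitted by limma was -0.20 (SE 0.13), at an adjusted p of 0.298. ALDH3A1 and ALDH8A1 were under the filter, with means of 9.95 and 7.63 in CD104high and 4.3 and 4.27 in CD104low.

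Levels were compared between genes after division by the length of the GENCODE principal transcript. Of the 17 superfamily genes in the table, ALDH3B1, ALDH18A1, ALDH7A1 and ALDH9A1 had the highest levels per kilobase, and the 10 genes described held between 93.9% and 95% of the summed level in each library. In CD104high, ALDH3B1 stood first with 3172 ± 281 normalised reads per kilobase (SD, n = 3), followed by ALDH7A1 (2659 ± 40.3), ALDH9A1 (2452 ± 23.2) and ALDH18A1 (2270 ± 116). In CD104low, ALDH18A1 stood first with 2688 ± 164, followed by ALDH7A1 (2283 ± 129) and ALDH9A1 (2261 ± 61.9), whose libraries overlapped, and then by ALDH3B1 (1799 ± 117). ALDH1B1 (951 ± 39.4 and 1220 ± 86.9 per kilobase in CD104high and CD104low) and ALDH16A1 (1045 ± 69.2 and 905 ± 45.3) came next, with overlapping libraries in CD104high. ALDH3A2 (656 ± 63.0 and 557 ± 64.3) and ALDH2 (364 ± 13.8 and 307 ± 29.4) were lower. ALDH1A3 (25.1 ± 10.1 and 19.2 ± 5.01) and ALDH1L2 (12.2 ± 3.39 and 6.66 ± 1.37) were far below them.

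Expressed as a share of the summed level per kilobase, ALDH3B1 made up 21.9% ± 1.47 (SD, n = 3) in CD104high and 14.1% ± 1.1 in CD104low. ALDH18A1 made up 15.7% ± 0.749 and 21.0% ± 0.92, and ALDH1B1 6.58% ± 0.355 and 9.54% ± 0.577. ALDH7A1 held 18.4% ± 0.592 and 17.9% ± 1.12, and ALDH1A3 0.173% ± 0.070 and 0.150% ± 0.037. The order depends on the length used: divided by the union of all annotated exons (6.63 kilobases in place of 2.79 for ALDH3B1, and 18.0 in place of 4.96 for ALDH7A1), ALDH18A1 (2024 in CD104high and 2398 in CD104low) and ALDH9A1 (1998 and 1842) stood above ALDH3B1 (1334 and 756) and ALDH7A1 (735 and 631) in both groups, and ALDH1B1 (924 and 1185) stood above ALDH7A1 in both and above ALDH3B1 in CD104low. Comparisons of a gene with itself between groups do not depend on length.

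**Figure D3:**
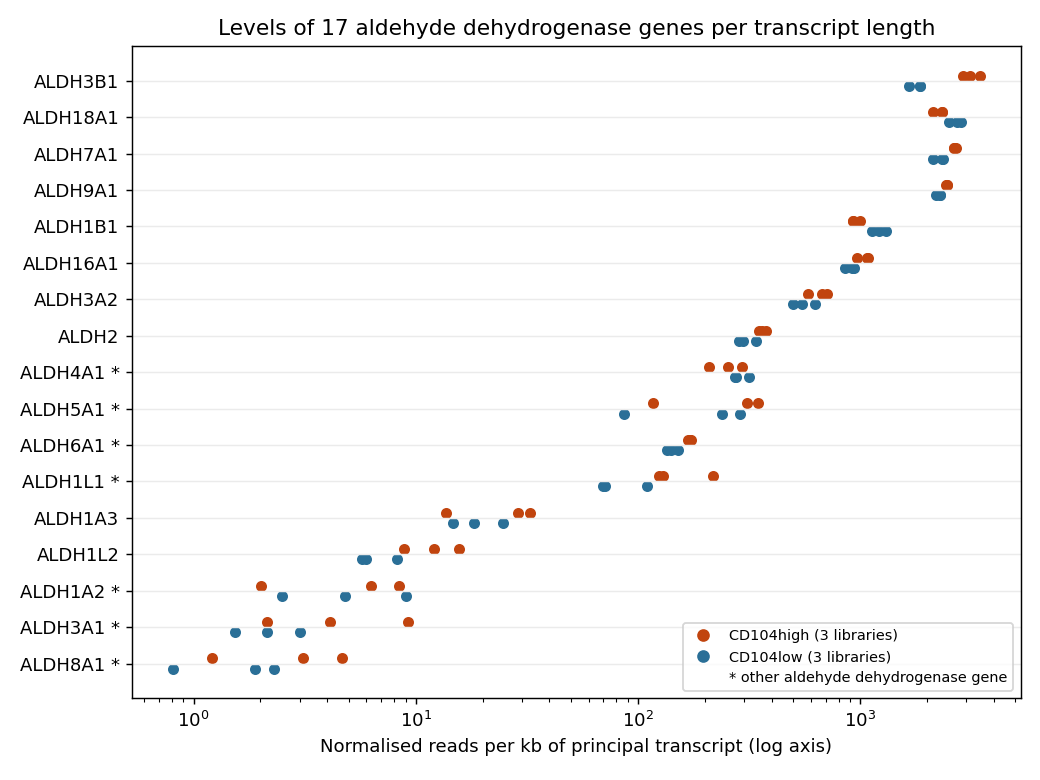
Normalised reads per kilobase of principal transcript (logarithmic horizontal axis) of 17 aldehyde dehydrogenase genes, with 1 point per library. ALDH3B1 (3172 in CD104high and 1799 in CD104low on average), ALDH18A1, ALDH7A1 and ALDH9A1 lie at the top, and ALDH1A3 and ALDH1L2 lie lowest among the 10 genes described.

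The authors' deposited table gave adjusted p-values for all 10 genes and called 4 higher and 2 lower, where 29.6% of the genes with an adjusted p were called. In the authors' deposited table ALDH1L2 (log2 fold change 0.87, adjusted p = 0.0153) and ALDH2 (0.25, adjusted p = 0.0181) were called in addition to the 4 genes above. ALDH3A2 (adjusted p = 0.0654), ALDH16A1 (0.087), ALDH9A1 (0.0905) and ALDH1A3 (0.386) were not called in the authors' deposited table either. Its log2 fold change for ALDH3B1 was 0.82 and for ALDH1B1 -0.36.

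The annotated spans of the genes that passed are on GRCh38 (GENCODE release 29). ALDH3B1 (ENSG00000006534.16) lies on chromosome 11 from 68008578 to 68029282 on the plus strand, and ALDH1B1 (ENSG00000137124.8) on chromosome 9 from 38392664 to 38398661 on the plus strand. ALDH7A1 (ENSG00000164904.18) lies on chromosome 5 from 126531200 to 126595418 and ALDH18A1 (ENSG00000059573.9) on chromosome 10 from 95605929 to 95656706, both on the minus strand. All 4 are annotated as protein-coding. Counts were per gene, so exons and transcript forms of a gene cannot be told apart.

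Genes that work beside these enzymes were counted in lists, read against the 12.1% of all genes called higher and 11.3% lower. Around ALDH1A3, 2 of 11 tested retinoid enzymes and carriers were higher and 1 lower (median log2 fold change -0.01). These were DHRS3, a reductase that turns retinaldehyde back into retinol (2.02-fold higher, adjusted p = 0.00144), DHRS4 (1.70-fold higher, adjusted p = 0.0158, but 0.0618 without CD104high replicate 1) and the retinoic acid carrier CRABP2 (1.74-fold lower, adjusted p = 0.00755, all limma). Of 11 receptors and target genes of retinoic acid, 4 were higher and 1 lower (median 0.29). PLAAT4 was 3.76-fold, RARRES2, which encodes chemerin, 2.11-fold, TGM2, a transglutaminase, 1.88-fold and the receptor RARG 1.22-fold higher, while FABP5, a fatty acid carrier, fell by 0.80 on the log2 scale. RARG (adjusted p = 0.0423) lost its call in 7 of 16 alternative settings, among them the removal of any library but CD104low replicate 1 (0.0683 to 0.153).

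Around ALDH1L2 and ALDH1L1, 2 of 21 tested folate one-carbon genes were higher and 7 lower (median -0.13). SHMT2, which supplies one-carbon units in mitochondria, was 1.29-fold lower (8438 ± 189 against 10926 ± 1096, adjusted p = 0.00893 with limma), ATIC, a purine enzyme that uses formyltetrahydrofolate, 1.27-fold lower and MTRR 1.46-fold lower. Around ALDH18A1, 1 of 11 tested proline and ornithine genes passed in limma, ARG2, the mitochondrial arginase (2.31-fold lower). With the replicate block 1 was higher and 2 lower, where 17.4% and 15.4% of all genes were. Of 14 polyamine genes, which use ornithine, 1 was higher and 6 lower (median -0.14). ODC1, which makes putrescine from ornithine, was 2.38-fold lower, SRM and AMD1, of spermidine synthesis, were both 1.33-fold lower, and AZIN2, an inhibitor of antizyme, was 1.49-fold higher. ALDH18A1 and ALDH1L2 are both known as targets of the stress factor ATF4, and of 28 other genes of the ATF4 response 1 was higher and 7 lower (median -0.16). SLC7A11, the cystine transporter, was 1.69-fold lower, SLC1A5, a glutamine transporter, 1.47-fold lower, PSAT1, of serine synthesis, 1.41-fold lower and SLC7A1 1.34-fold lower. The higher gene was SLC1A4 (log2 fold change 0.42, adjusted p = 0.027 with limma). The other 20 did not pass, among them ATF4 itself (-0.10), ASNS (-0.09), TRIB3 (-0.10), PHGDH (-0.15) and CHAC1 (0.06). ALDH18A1 was lower, while ALDH1L2 was fitted higher and did not pass. Around ALDH3A2 and ALDH3B1, 1 of 14 tested fatty aldehyde and ether lipid genes passed in limma. With the replicate block 3 were higher and 1 lower, against 17.4% and 15.4% of all genes. The gene that passed in limma was SGPL1, the lyase that releases a fatty aldehyde from sphingosine phosphate (1.28-fold higher, adjusted p = 0.00383). The counts and medians describe the lists, and no list was tested as a whole.

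**Figure D4:**
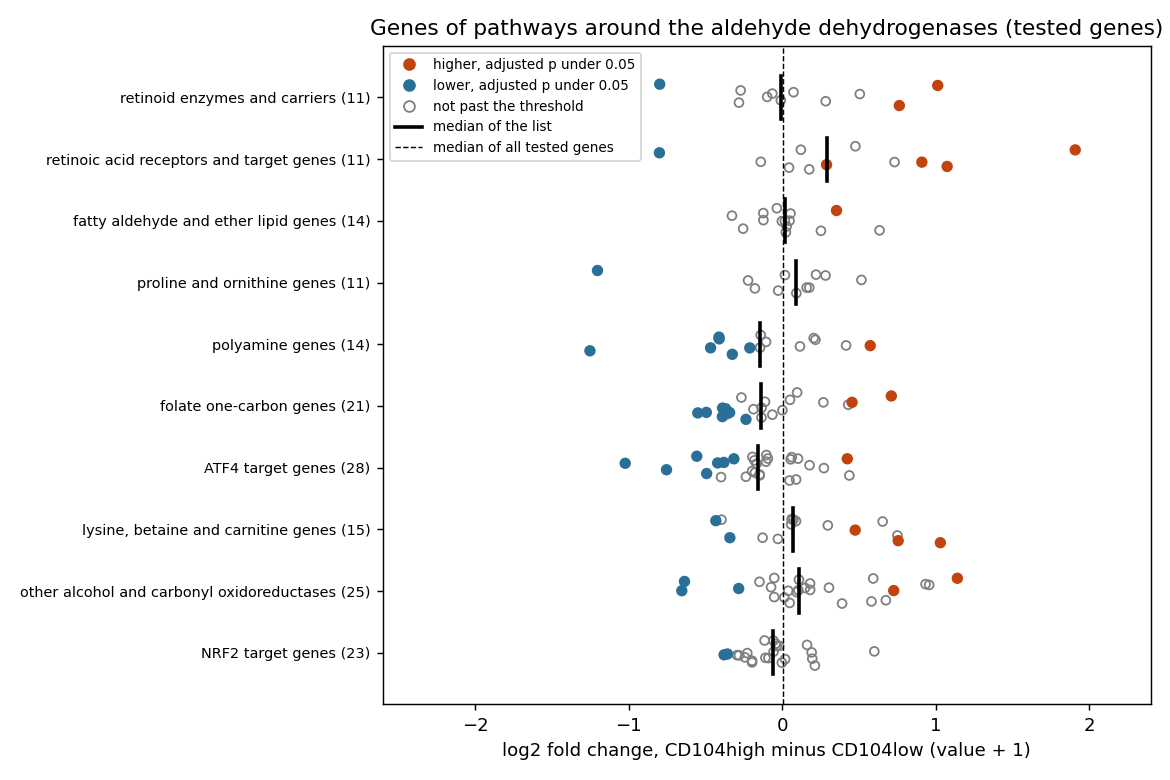
Log2 fold change (CD104high minus CD104low, horizontal axis) of each tested gene in 10 lists, with the number tested in brackets. Filled points passed an adjusted p under 0.05 in limma, thick ticks are list medians and the dashed line is the median of all tested genes (0.01). Most filled points of the polyamine, folate and ATF4 lists lie below 0.

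Over the whole table, recovered gene reads ranged from 52088604 to 56958065 per library, and no library pair was identical. ITGB4, the gene of the sort marker, was 5.83-fold higher in CD104high (adjusted p = 4.1e-05 with limma). Of markers of the mesenchymal MDA-MB-231 line 8 of 8 were in the table, with summed values of 290098 to 312966 in CD104high and 254074 to 276984 in CD104low. In limma 2 of these 8 were called higher and 0 lower, against 12.1% and 11.3% of all genes (median log2 fold change 0.07). S100A4 was 2.05-fold and CAV1 1.29-fold higher, the latter losing its call without any library but CD104low replicate 3 (adjusted p = 0.0528 to 0.0863 with limma). The other 6 did not pass. Their log2 fold changes were 0.14 (LGALS1), 0.07 (VIM), 0.07 (AXL), -0.01 (ZEB1), -0.16 (CD44) and -0.21 (MSN). For leukocytes 2 of 9 markers were in the table (CD14 and LAPTM5, summing to 955 to 1129 against 483 to 718), for endothelium 5 of 7 (1103 to 1811 against 1313 to 2497) and for fibroblasts 6 of 8 (5067 to 7483 against 3125 to 5156). In limma 1 of 2 tested leukocyte markers (CD14, 2.21-fold), 0 of 3 endothelial and 1 of 4 fibroblast markers (COL1A2, 2.82-fold) were called higher. In each of these lists 0 were called lower, against 12.1% higher and 11.3% lower of all genes. LAPTM5 (log2 fold change 0.65), COL1A1 (0.09), PDGFRB (0.62) and LUM (2.22) did not pass. For luminal breast cells 5 of 9 were in the table (92384 to 95995 against 77757 to 93453). The table holds no value of 0, and PTPRC, VWF, CDH5, FAP, ESR1 and PGR were among the markers not analysed here. The part of other cell types in the results was not tested, and in sorted bulk samples fewer cells of a type and less RNA per cell cannot be told apart.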

How the data were processed

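The data are RNA-seq of 6 sorted MDA-MB-231 samples, 3 of each group. The tools named by the submitters' processing notes are STAR 2.4.0, FastQC, DESeq2 1.30.1 and featureCounts 1.5.0, and the build is GRCh38.p13 (hg38). What each tool did is not given in the sources used here. The authors deposited values of unit signal, gene read counts divided by a size factor per library, with a log2 fold change, its standard error, a test statistic (a score, not used further) and p-values. From the steps of the low values, whole reads were recovered (rounded, 100.0% of each library's values came within 0.1 of an integer). In CD104high replicate 2 the step, 0.993, was too close to 1 to be certain, so count tests stand only as alternatives. Reads ranged from 52088604 to 56958065 per library, so counting error was small except for genes with about 100 reads or fewer.

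Genes that reached a value of 10 in 3 or more libraries were fitted in limma 3.58.1 under R 4.3.3, on log2(value + 1) and with the mean-variance trend. Genes were called at a Benjamini-Hochberg adjusted p under 0.05. The pseudocount of 1 understates fold changes of low genes. The members and lists were chosen with earlier results of these data known. Named list genes were all called genes of a list where 6 or fewer passed, and otherwise the 4 with the smallest p. A gene that this rule names is not reported here. The sort gene and the other aldehyde dehydrogenase genes in the table were also named. Ratios between members and overlapping genes were added after values were seen. Same-numbered samples deviated together from their group means (r across genes 0.166, 0.317 and 0.477 for numbers 1 to 3). Unlike-numbered samples had r of 0.129 (CD104high replicate 2 with CD104low replicate 1) and 0.093 (CD104high replicate 1 with CD104low replicate 2). Where 1 sample was numbered 3 and the other was not, r was -0.373 to -0.222. Deviations from a group mean cancel within the group, so these negative values follow in part from the positive ones and are not separate evidence. The positive r of the samples numbered 3 sets them apart, while numbers 1 and 2 are separated weakly. The labels do not give the pairing that the replicate block assumes. The second principal component (26.0% of the variance) set both libraries numbered 3 apart. Alternatives were pseudocounts of 0.1 and 5, no filter and a filter at 100, each library left out, both libraries numbered 3 left out, the replicate block, no trend, and edgeR 4.0.16 (TMM or total reads) and DESeq2 1.42.0 on recovered reads. Gene spans and lengths come from GENCODE release 29, in which 14994 of the 15024 identifiers were found once their version numbers were dropped.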

Additional observations from a re-analysis of the deposited data

How the results depend on the processing

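ALDH3B1 and ALDH1B1 kept direction and call in all 16 alternatives, and ALDH18A1 and ALDH7A1 kept direction in all 16 and the call in 9. The number of the 10 genes called higher, 2 in the main test, was 6 with the replicate block, 4 with DESeq2, 4 with edgeR on total reads, 1 without the mean-variance trend and 1 without both libraries numbered 3, and 1 to 3 on leaving out each library. The number called lower, 2, was 1 without the trend, 1 without both libraries numbered 3, and 1 to 2 on leaving out each library. The replicate block added calls of ALDH2, ALDH3A2, ALDH16A1 and ALDH1L2 and ended none of the 4 main ones. Over all genes, 1730 were higher and 1625 lower, and with the replicate block 2498 and 2208. Leaving out each library gave 1007 to 1770 higher and 798 to 1544 lower, with the lowest counts without CD104high replicate 1, and without the trend 936 were lower. Genes of all other lists numbered 22 higher and 31 lower, with 36 higher under the replicate block, 19 lower without the trend, and 20 to 31 lower on leaving out each library. Of all genes, 12.1% were higher and 11.3% lower in the main test, 17.4% higher with the block and 6.53% lower without the trend. The list counts are not read as a result about the lists. ALDH1A2, at -0.0026 on the log2 scale, was 0.00956 with a pseudocount of 5, 0.0332 with edgeR and TMM, 0.0405 with DESeq2, 0.0625 with edgeR on total reads, 0.14 without both libraries numbered 3, and between -0.44 and 0.58 on leaving out each library. ALDH5A1 ran from -0.17 to 0.85 on leaving out each library. The causes were not tested. Depth sets a counting error of 10.1% to 14.0% for ALDH1A3 and ALDH1L2, whose libraries varied by 20.5% to 40.2%.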

Other observations

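Other oxidoreductases of aldehydes and alcohols, tested as 25 genes, held 2 higher and 3 lower by limma (median log2 fold change 0.11), where 12.1% and 11.3% of all genes were. In the limma fit AKR1C3 was 1.66-fold higher (adjusted p = 0.0018) and AKR1C2 2.21-fold higher (adjusted p = 0.0092), the latter with means of 148 ± 41.4 against 64.6 ± 1.48 (SD, n = 3). Both belong to a family of near-identical aldo-keto reductase genes, so how their reads were divided is uncertain, and without CD104high replicate 1 the adjusted p of AKR1C2 was 0.0537. AOX1, an aldehyde oxidase that needs a molybdenum cofactor, was 1.57-fold lower, SORD, which oxidises sorbitol, 1.55-fold lower and GLO1, which clears methylglyoxal, 1.22-fold lower (adjusted p = 0.0167, and 0.0697 without CD104high replicate 1). Of 23 targets of NRF2, 2 passed in limma, PRDX1 (1.28-fold lower) and GCLM (1.3-fold lower, adjusted p = 0.0158, and 0.0732 without CD104high replicate 1). With the replicate block 3 were higher and 4 lower, against 17.4% and 15.4% of all genes.

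Of 15 lysine, betaine and carnitine genes, listed as pathways around ALDH7A1 and ALDH9A1, 3 were higher and 2 lower, against 12.1% and 11.3% of all genes. CPT1C was 2.04-fold higher (897 ± 22.4 against 441 ± 59.0, adjusted p = 0.000589 with limma), SARDH, a sarcosine dehydrogenase, 1.69-fold higher and CPT1A, which passes fatty acids to carnitine, 1.39-fold higher. AADAT and GCDH, both of lysine breakdown, were 1.35-fold and 1.27-fold lower (adjusted p = 0.0297 and 0.0255), and each lost its call in 5 of 16 alternatives, 4 of them the removal of 1 library (AADAT 0.0725 to 0.106, GCDH 0.0545 to 0.0899). Of 11 tested surface and stem cell markers, ITGA6 (1.87-fold) and SOX9 (1.32-fold) were higher and BMI1 was 1.37-fold lower, against the same shares of all genes. ITGA6 encodes the partner of the sort marker, so the list is not independent of the sort.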
